A study of Mus musculus with 7 samples.

Results

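The genes described here carry out fatty acid synthesis or are targets of the liver X receptors (LXRs), and they were measured in mouse leukemia cells exposed to the small molecule BRD7116. The 10 genes, taken by symbol from the platform annotation of the array, were Abca1, Abcg1, Srebf1, Scd1, Scd2, Fasn, Acaca, Acly, Mylip and Nr1h2. Of these, 9 had a probe on the array, with 2 probes each for Srebf1 and Mylip and 1 for each of the other 7, which gave 11 of the 25697 probes. No probe carried the symbol Nr1h2, so this receptor was not analysed here. Each probe was kept apart. The genes were chosen by symbol with the measured differences between the BRD7116 and DMSO arrays of this same comparison already known, and their differences between groups are therefore given as a description without a test.

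The study looked for small molecules that inhibit leukemia stem cells. The treated group was 5 arrays of LSCe cells, labelled leukemia stem cells, kept for 6 h in suspension with 5 µM BRD7116 in 0.2% DMSO. The vehicle group was 2 arrays of the same kind of cells kept for 6 h with 0.2% DMSO alone. All cells were freshly isolated and held in the same serum-containing medium. The mouse strain, the driver of the leukemia and the number of animals are not given in the sources used here. Nothing states that replicates came from separate cultures or animals, so the spread between arrays may be technical.

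Acetyl-CoA for fatty acid synthesis is made in the cytosol from citrate, turned into malonyl-CoA and joined into palmitate, which stearoyl-CoA desaturases then make monounsaturated. The transcription factor SREBP-1, encoded by Srebf1, drives the genes of these steps. The LXRs are nuclear receptors for oxysterols that bind DNA with a retinoid X receptor partner, raise Srebf1 transcription, and switch on exporters of cholesterol and a ligase that removes the LDL receptor. In blood cells this program is best known from macrophages, which use it to unload cholesterol.

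Promoter windows of 300 bases, 250 before to 50 after a transcription start, were taken from RefSeq (GRCm38.p6) and matched by symbol for 7 of the 10 genes, in 9 windows because Srebf1 had 3. Each was searched on both strands for GGTNANNNNNGGTNA, letters kept from the direct repeat that LXR binds. These letters were found in 3 of the 9 windows, those of Abca1, Fasn and 1 of the Srebf1 starts, and in 236 of all 32851 windows of this length, or 0.718%. The 3 windows are shown because they hold these letters. The genes were taken by symbol and not by this match, and the window of Mylip, also an LXR target, had none. Nothing is read from the share of windows with a match. They are written 5′ to 3′ on the strand of the gene, and the capitals mark the 15 bases whose reverse complement matches.
Abca1, minus strand, chr4:53159846-53160145: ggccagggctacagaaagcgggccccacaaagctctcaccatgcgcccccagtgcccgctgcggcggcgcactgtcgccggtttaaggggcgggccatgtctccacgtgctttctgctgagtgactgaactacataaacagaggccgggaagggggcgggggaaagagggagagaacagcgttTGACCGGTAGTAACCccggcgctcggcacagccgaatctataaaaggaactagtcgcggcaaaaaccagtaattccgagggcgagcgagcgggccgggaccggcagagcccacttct
Srebf1, minus strand, chr11:60210422-60210721: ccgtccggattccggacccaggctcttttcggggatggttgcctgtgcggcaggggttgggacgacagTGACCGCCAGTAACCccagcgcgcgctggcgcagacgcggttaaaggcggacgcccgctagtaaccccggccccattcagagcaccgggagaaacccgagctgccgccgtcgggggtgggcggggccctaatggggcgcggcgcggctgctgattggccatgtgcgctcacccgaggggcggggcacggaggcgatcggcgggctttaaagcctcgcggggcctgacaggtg
Fasn, minus strand, chr11:120824498-120824797: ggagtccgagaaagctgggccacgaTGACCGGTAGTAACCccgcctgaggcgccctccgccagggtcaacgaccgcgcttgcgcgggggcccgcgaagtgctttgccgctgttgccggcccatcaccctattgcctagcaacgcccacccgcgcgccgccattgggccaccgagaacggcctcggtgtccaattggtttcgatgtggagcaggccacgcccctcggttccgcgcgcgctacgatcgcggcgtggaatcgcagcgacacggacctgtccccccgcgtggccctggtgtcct
Read on the matching strand, the match was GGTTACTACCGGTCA in both Abca1 and Fasn and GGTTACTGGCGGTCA in Srebf1. It lay from -67 to -53 in Abca1, from -182 to -168 in Srebf1 and from -225 to -211 in Fasn, counted from the transcription start. The sterol regulatory element TCACNCCAC, a binding site of SREBPs, was in none of the 9 windows and in 1.24% of all windows. The CCAAT box bound by NF-Y, a partner of SREBPs, was in 5 of the 9, from Srebf1, Fasn, Acly and Mylip, against 37.4% of all windows, and 2 of the 3 boxes of Fasn overlapped on opposite strands. The E-box CACGTG, which reads the same on both strands, was in the Abca1 window only among the 9 and in 7.15% of all. A match is a stretch of letters and not a measured binding site, and binding was not measured in this study.

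Signal strength differed between the 3 chips that held the 7 arrays. Chip 1, with BRD7116 replicate 1 and DMSO replicate 2, was dim, with 4585 and 4412 probes detected, against 6749 to 8451 on each array of chips 2 and 3. BRD7116 replicate 2 shared chip 2 with DMSO replicate 1, and BRD7116 replicates 3, 4 and 5 were alone on chip 3. A probe was called detected on an array where its deposited detection p-value, which sets it against negative controls, was under 0.05. Of 10 myeloid progenitor markers with a probe, 6 were detected on all 7 arrays (Ctsg, Elane, Hoxa9, Meis1, Mpo and Prtn3), and Cd34, Flt3 and Sox4 on none. Of 8 macrophage markers 6 were detected on no array, among them C1qa, C1qb, C1qc and Mrc1. Levels of the marker probes were also summed before the log2 was taken, so the brightest probes weigh most. The log2 of this sum for the 8 macrophage markers was 8.97 to 9.18 with BRD7116 and 8.50 to 8.91 with DMSO. The log2 of the sum for 5 erythroid markers was 8.16 to 8.48 with BRD7116 and 8.86 to 8.98 with DMSO. Of these, Alas2, Epor and Klf1 were detected on no array. The log2 of the sum for 8 neutrophil markers was 10.40 to 10.63 with BRD7116 and 10.65 to 10.79 with DMSO. The sum of 4 T cell markers, none detected on any array, was also apart, at 6.62 to 6.76 with BRD7116 and 6.80 to 6.90 with DMSO. The sums of the myeloid progenitor, B cell, megakaryocyte, stroma, adipocyte and endothelium markers overlapped between the groups. The part of these markers in the values below was not tested. No adipocyte marker was detected on all 7 arrays, and 4 of 5 were detected on none.

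Most of the member probes were not well above background in either group. Only Acly was detected on all 7 arrays, Acaca was detected on 5, Abcg1 and Scd1 on 1 each, and the remaining 7 probes on none. In all, 14 of the 77 probe and array values were detected. Across the whole array 12.0% of probes were detected on all 7 arrays and 56.7% on none. Detection on at least 2 arrays, the filter used here, was met by 2 of the 11 probes, Acly and Acaca, and by 33.5% of all probes. The plot of detection p-values shows Acly and Acaca at the left edge and the other genes spread over the range.

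**Figure D1:**
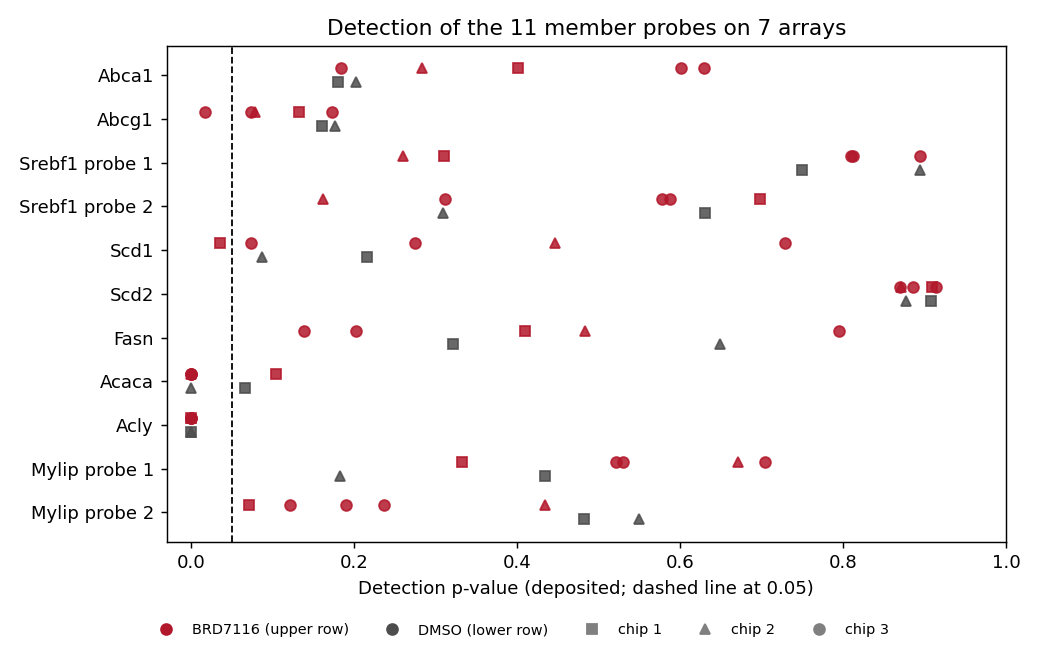
Deposited detection p-value (x axis) of each of the 11 member probes (rows) on 7 arrays, with BRD7116 in the upper row of points and DMSO in the lower, and the chip as the marker. The dashed line is the threshold of 0.05. Acly lies at 0 on all 7 arrays and Acaca at 0 on 5, while Scd2 lies at 0.870 or above on every array.

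Acly encodes ATP citrate lyase, which splits citrate into the cytosolic acetyl-CoA that starts the pathway. Its deposited intensities were 580, 2037, 2240, 1530.0 and 3084 units on BRD7116 replicates 1 to 5 and 1807 and 635 units on DMSO replicates 1 and 2. The 2 low values are those of the dim chip. After normalization the log2 levels were 10.68, 10.32, 10.62, 10.65 and 10.74 with BRD7116 and 10.59 and 10.82 with DMSO. The groups overlapped, with DMSO replicate 2 the highest of the 7 arrays and BRD7116 replicate 2 the lowest. The means were 10.60 ± 0.17 (SD, n = 5) with BRD7116 and 10.71 ± 0.16 (SD, n = 2) with DMSO. The log2 fold change was -0.11 (standard error, SE, 0.19), or 0.929-fold with a 95% interval of 0.684 to 1.26. The difference was smaller than the spread between replicates. In bulk RNA such as this, fewer cells of a type and less RNA per cell cannot be told apart. Under median scaling the interval was wider, from -1.48 to 1.82 on the log2 scale relative to the shift of all probes. Within chips, BRD7116 minus DMSO was -0.14 on chip 1 and -0.28 on chip 2, each from 1 array per group, and with chip as a block the log2 fold change was -0.21 with a 95% interval of -0.62 to 0.20. The authors' deposited values gave means of 10.24 with BRD7116 and 10.32 with DMSO.

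Acaca encodes acetyl-CoA carboxylase 1, which makes malonyl-CoA in the step that commits acetyl-CoA to fatty acids. Its log2 levels were 5.63, 6.54, 6.24, 6.37 and 6.81 on BRD7116 replicates 1 to 5 and 6.87 and 5.95 on DMSO replicates 1 and 2. It was not detected on either array of the dim chip, where the detection p was 0.104 with BRD7116 and 0.0664 with DMSO, and these were also its lowest levels. The other 5 arrays had a detection p of 0. The means were 6.32 ± 0.44 (SD, n = 5) with BRD7116 and 6.41 ± 0.65 (SD, n = 2) with DMSO. The log2 fold change was -0.09 (SE 0.36), or 0.939-fold with a 95% interval of 0.530 to 1.66, so the difference was within the spread between replicates. On both chips that held both groups the BRD7116 array was lower, with a BRD7116 minus DMSO difference of -0.32 on the log2 scale on each chip. With chip as a block the log2 fold change was -0.32 with a 95% interval of -0.87 to 0.22. Without DMSO replicate 1 the log2 fold change was 0.36, with an array on which Acaca was not detected as the only control, and without DMSO replicate 2 it was -0.58.

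**Figure D2:**
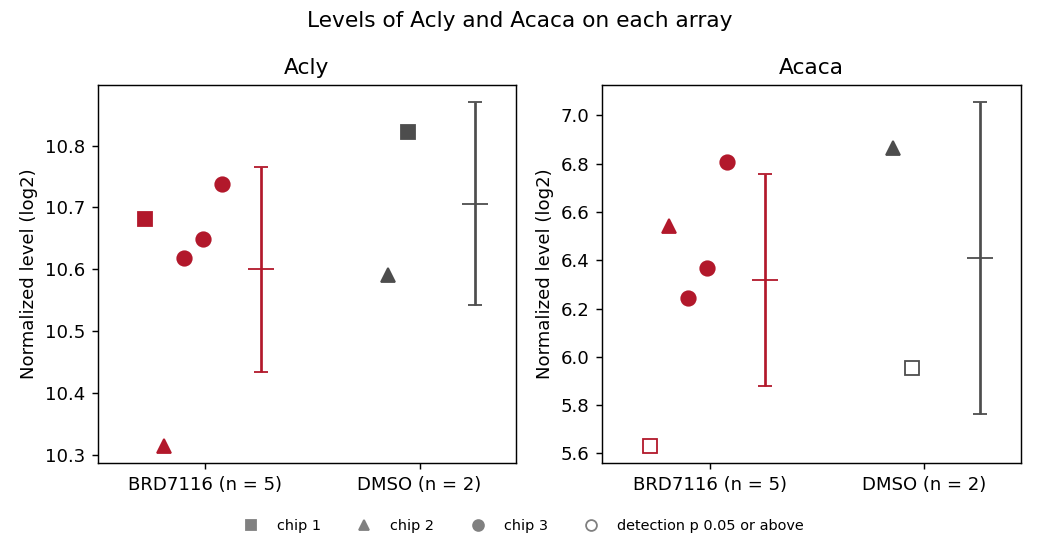
Normalized log2 level (y axis) of Acly and Acaca on the 5 BRD7116 arrays and the 2 DMSO arrays, with the chip as the marker and open markers for arrays where the probe was not detected. Bars give the mean and SD of each group. The groups overlap for both genes, and the 2 lowest Acaca values come from chip 1.

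Fasn, the synthase that assembles palmitate, was not well above background on any array. Its log2 levels were 5.00, 4.87, 5.11, 4.68 and 5.07 with BRD7116 and 4.79 and 5.07 with DMSO, with detection p-values of 0.139 to 0.795 with BRD7116 and 0.322 and 0.649 with DMSO. No fold is given for a probe below background in both groups, so the enzyme that follows Acly and Acaca in the pathway has no measured change here. Scd1 and Scd2 encode stearoyl-CoA desaturases, which put the first double bond into saturated acyl chains. Scd2 had detection p-values of 0.870 to 0.914 with BRD7116 and 0.877 and 0.907 with DMSO. Scd1 was detected on 1 array, BRD7116 replicate 1, with a detection p of 0.0351 at 178 intensity units. The DMSO array on the same chip read 188 intensity units for Scd1 and had a detection p of 0.216, so the higher intensity was the one not detected. The other 4 BRD7116 arrays had detection p-values of 0.446, 0.274, 0.729 and 0.0739 for Scd1, and DMSO replicate 1 had 0.0877. The bound that an undetected control allows was below 1, and no fold is given.

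Srebf1, the regulator of this pathway and itself an LXR target, had 2 probes and neither was detected on any array. For the first, detection p-values were 0.261 to 0.895 with BRD7116 and 0.749 and 0.895 with DMSO. For the second they were 0.162 to 0.698 with BRD7116 and 0.310 and 0.630 with DMSO. The 2 probes differed in which arrays were highest. The first had its highest log2 level, 5.11, on BRD7116 replicate 1, and the second had its highest, 5.13, on BRD7116 replicate 2.

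The direct LXR targets were likewise at or near background. Abca1 encodes the transporter that loads cholesterol onto apolipoprotein A-I. Its intensities were 157, 209, 134, 159 and 168 units on BRD7116 replicates 1 to 5 and 186 and 191 units on DMSO replicates 1 and 2. Its lowest detection p was 0.180, on a DMSO array, so none of these values stood above the negative controls. Abcg1, which passes cholesterol to high density lipoprotein, was detected on BRD7116 replicate 3 with a detection p of 0.0175. Its log2 levels were 5.496, 5.27, 5.35, 5.13 and 5.24 with BRD7116 and 5.13 and 5.34 with DMSO, and the groups overlapped. Its bound was below 1, so no fold is given. Mylip, also called IDOL, is the ubiquitin ligase that marks the LDL receptor for degradation. Neither of its 2 probes was detected on any array. Detection p-values for the first were 0.332 to 0.704 with BRD7116 and 0.183 and 0.435 with DMSO, and for the second 0.0714 to 0.435 with BRD7116 and 0.482 and 0.550 with DMSO. The second probe was at its highest on the dim chip, with a log2 level of 5.87 on BRD7116 replicate 1, which was still not detected.

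For none of the 11 probes did all 5 BRD7116 arrays lie on one side of both DMSO arrays, where 9.95% of all 25697 probes on the array and 10.8% of the 8613 detected on at least 2 arrays did. Because the genes were proposed from this comparison, nothing is read from that count. Only Acly and Acaca were among the 8613 probes fitted. limma called 0 of these at an adjusted p under 0.05, or 0%, and 574, or 6.66%, had an unadjusted p under 0.05, with 278 (3.23%) higher and 296 (3.44%) lower with BRD7116. The median log2 fold change of all 8613 was 0.07, with 4944 higher and 3669 lower with BRD7116.

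The genes with the profile most like that of Acly were Got2, Galnt2 and Dram1, among 2919 other named probes detected on all 7 arrays. Likeness was the root mean square difference of log2 levels over the 7 arrays after the mean of each probe was taken off. It was 0.044 for Got2, the mitochondrial aspartate aminotransferase, 0.056 for Galnt2, which starts O-linked glycosylation, and 0.060 for Dram1, a lysosomal membrane protein induced by p53. The median over all candidates was 0.25. Their log2 fold changes were -0.12, -0.14 and -0.09, which lie near that of Acly because the 3 probes were chosen for likeness over the same arrays.

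Related genes were described in 8 lists, with 79 different probes tested. At an adjusted p under 0.05 limma called 0 of the 79. At an unadjusted p under 0.05 in limma there were 2 higher and 3 lower with BRD7116. Of all 8613 tested probes, 6.66% had such a p, and nothing is read from the count of 5 among the 79. Of these 5, Fdps was named by the rule for the lists, and the others were chosen for naming after their values were seen. Each of the 5 had an adjusted p of 0.689 in limma. Rxrb, which encodes a partner of LXR, had a log2 fold change of 0.57 (SE 0.24) by a probe detected on 1 of the 2 DMSO arrays, while its other tested probe, detected on all 7, had 0.08 (SE 0.20). Abcg8, a sterol exporter, was detected on 4 BRD7116 arrays and no DMSO array, and its bound was below 1. Med1, a Mediator subunit that nuclear receptors recruit, was detected on no BRD7116 array and on both DMSO arrays. It was at least 1.60-fold lower with BRD7116, with log2 levels of 4.96 to 5.31 against 5.48 and 6.81 with DMSO. This bound rests on DMSO replicate 2 of the dim chip, since against DMSO replicate 1 alone it was 1.01-fold, and the BRD7116 minus DMSO difference was -1.499 on the dim chip and -0.52 on chip 2. Insig1, which holds SREBPs in the endoplasmic reticulum and is itself an SREBP target, had log2 levels of 5.0964, 5.55, 5.53, 5.21 and 5.53 with BRD7116 and 5.61 and 6.56 with DMSO, a log2 fold change of -0.70 (SE 0.28). The difference was -1.46 on the dim chip and -0.057 on chip 2, and DMSO replicate 2 had the highest level of the 7 arrays. Fdps of cholesterol synthesis had a log2 fold change of -0.51 (SE 0.19). For each of the 5 probes with a low unadjusted p, all BRD7116 arrays lay on one side of both DMSO arrays, which 10.8% of the 8613 tested probes also did. A low p on these same arrays favors such a separation, so nothing is read from it.

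The receptor list held 9 tested probes, 6 higher and 3 lower with BRD7116, and its median log2 fold change was 0.08. Among the 6, the Ncoa1 probe and 1 of the Ncoa6 probes were detected on 3 BRD7116 arrays and on no DMSO array. Their bounds were below 1, so their place among the higher probes rests on levels near background. A block for chip turned the list median to -0.17, median scaling to -0.18 relative to all probes, and without DMSO replicate 1 it was 0.70. Nr1h3, which encodes the other LXR, was close to background, detected on 1 array of each group, with log2 levels of 5.07 to 5.27 with BRD7116 and 5.64 and 4.90 with DMSO. The corepressor subunit Hdac3 had a log2 fold change of -0.26 (SE 0.21). Of 21 probes for other LXR targets 11 were detected on no array, and the 7 tested had a median of 0.16 with 5 higher and 2 lower. Without the arrays of the dim chip this median was -0.011, and a block for chip put it at -0.0058. Lpcat3, which puts polyunsaturated chains into phospholipids, had log2 levels of 8.01, 8.22, 8.26, 8.33 and 8.34 with BRD7116 and 8.43 and 8.82 with DMSO. All 5 treated values lay below both controls, with a log2 fold change of -0.39 (SE 0.19) that did not pass. Smpdl3a, a phosphodiesterase induced by LXR in human macrophages, had 0.47 (SE 0.29) and its groups overlapped.

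The genes that process and sense SREBPs showed a median log2 fold change of 0.03 among 9 tested probes, 6 higher and 3 lower. Srebf2, which encodes the SREBP of cholesterol synthesis, had 0.39 (SE 0.26), and the site-1 protease gene Mbtps1 had -0.19 (SE 0.35). Of the 3 tested probes of Mbtps1, another detected on all 7 arrays had 0.086 (SE 0.19), which is of the opposite sign. The third, detected on no DMSO array, had measured mean levels of 5.35 with BRD7116 and 4.72 with DMSO. Its bound was below 1, so no fold is given. Other enzymes of fatty acid synthesis, elongation and desaturation had 16 tested probes, 7 higher and 9 lower, with a median of -0.06. Slc25a1, the carrier that brings citrate out of mitochondria to Acly, had a log2 fold change of -0.39 (SE 0.26). Its highest value, 7.65, was on DMSO replicate 2, and the others ran from 6.71 to 7.34 with BRD7116 and stood at 6.94 on DMSO replicate 1. Fads1, a front-end desaturase of polyunsaturated fatty acids, had log2 levels of 7.50, 8.0955, 8.07, 8.18 and 8.05 with BRD7116 and 8.44 and 8.27 with DMSO. All 5 lay below both controls, the log2 fold change was -0.38 (SE 0.23), and it did not pass.

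The lists for downstream and opposing steps and for cholesterol synthesis had medians from -0.21 to 0.11, against 0.07 for all probes tested. Acyl-CoA synthetases and glycerolipid enzymes showed a median log2 fold change of -0.06 among 6 tested probes, 3 higher and 3 lower, with Dgat2 at 0.39 (SE 0.44) and Acsl5 at -0.19 (SE 0.23). Substrates and partners of Mylip had a median of 0.11 over 4 tested probes, with Msn at -0.19 (SE 0.29) and Usp2 at 0.08 (SE 0.24). Fatty acid oxidation, the reverse route, had a median of 0.04 over 15 tested probes, 10 higher and 5 lower. In this list Acadm, the medium-chain dehydrogenase, had a log2 fold change of 0.25 (SE 0.17), and all 5 BRD7116 arrays lay above both controls. Etfa, which takes up electrons from Acadm, had 0.21 (SE 0.22). The other 3 tested probes of Etfa had -0.12 (SE 0.19), 0.03 (SE 0.25) and, by a probe detected on 1 DMSO array, 1.08 (SE 0.55), so its probes disagreed in sign. Cholesterol synthesis, the other branch served by SREBPs, had 3 of 13 tested probes higher and 10 lower and a median of -0.21. Both tested probes of Sqle were among the 10. Of all 8613 tested probes, 4944 were higher and 3669 lower. Beside Fdps the named gene of this list, Hmgcs1, the synthase before the rate-limiting step, had -0.11 (SE 0.17). The difference between these lists was not tested.

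**Figure D3:**
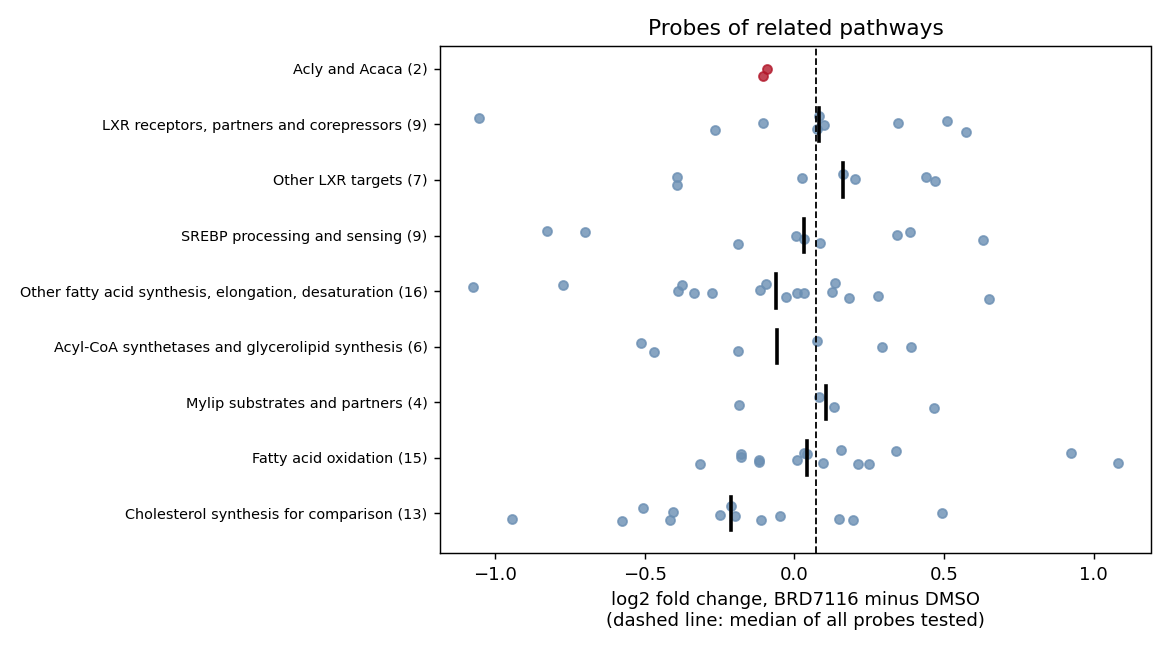
log2 fold change, BRD7116 minus DMSO (x axis), of Acly and Acaca and of each tested probe in 8 lists (rows, number of probes in brackets). Black bars are list medians and the dashed line is the median of all probes tested, 0.07. The list medians run from -0.21 to 0.16, and each list has probes on both sides of 0.

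The estimates for Acly and Acaca were recomputed under other settings. The 95% interval held 0 in all 19 settings for Acly and in all 18 in which Acaca was fitted. The Acly estimate was below 0 in 17 of 19 settings and that of Acaca in 15 of 18. The settings reuse the same arrays and several leave the estimate unchanged, so these counts are not independent evidence of a direction.

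**Figure D4:**
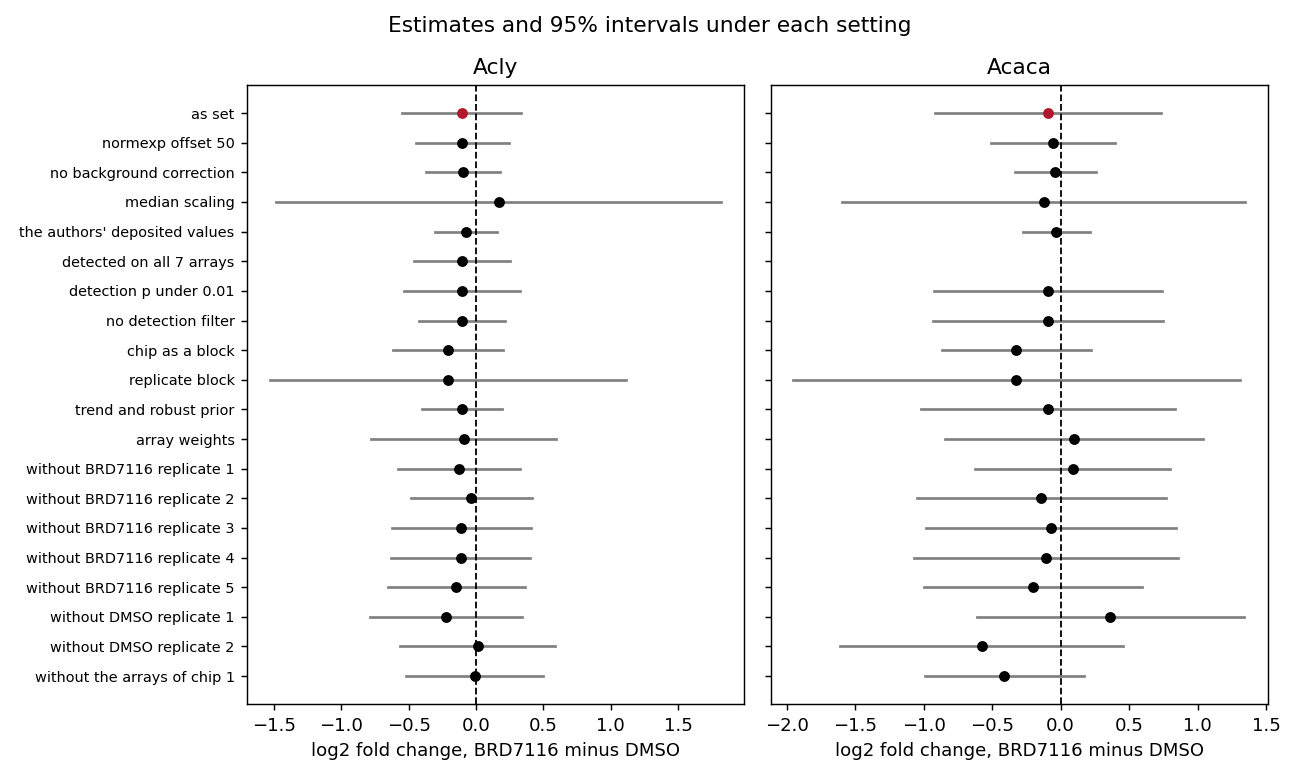
log2 fold change, BRD7116 minus DMSO (x axis), of Acly and Acaca with 95% intervals (lines) under each setting (rows), with the setting as reported in red. Every interval crosses 0, and the Acaca estimate runs from -0.58 without DMSO replicate 2 to 0.36 without DMSO replicate 1.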

How the data were processed

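Biotin-labelled RNA was hybridized to Illumina MouseRef-8 arrays, per the labels. The authors deposited a probe intensity, not normalized between arrays, and a detection p-value for each array, per the file headers. The authors also deposited values on the log2 scale by a method not given in the sources used here. Their columns shared a median of 7.52, and they served as an alternative. The scanner software is not given in the sources used here.

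Background was estimated from the detection p-values and removed with an offset of 16, followed by quantile normalization and log2 (function neqc of limma 3.58.1 in R 4.3.3). A probe was fitted only if at least 2 arrays gave it a detection p under 0.05. The 2 groups were compared in limma (lmFit, eBayes), two-sided, without covariates, and p-values were adjusted by Benjamini-Hochberg across the 8613 probes with a threshold of 0.05. The fit was tested on simulated data. Where no array of a group detected a probe, its fold is a bound. List counts and medians took the fitted log2 fold change of every tested probe, also where the bound was below 1. The bound set the mean of the bright group against the mean of the dim group, in which each array took the higher of its lowest detected level and the level of the probe. A bound rests on background-corrected values. Symbols came from the platform annotation, with 23978 probes given 1 symbol and 1719 none, and a RefSeq table changed 0 of them. No gene coordinates are given because the files name no build, and promoter windows carry the build of their own table. Array number and signal over background limited the precision.

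The genes and lists were chosen with earlier results of these data known. All member probes were named. From each list the 2 probes detected on all 7 arrays with the largest absolute difference were named, as no probe passed the threshold. Nr1h3 and the probes of Rxrb, Abcg8, Med1 and Insig1 with a low unadjusted p were added after their values were seen. The likeness rule took the member detected on all 7 arrays and the 3 nearest named probes. Alternatives changed the background correction, normalization, detection filter, prior and array weights, blocked on chip or replicate number, took the authors' values, and left out each array or the dim chip. The bound of Med1 against each control alone was added after the data were seen.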

Additional observations from a re-analysis of the deposited data

Results flagged for a closer look

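In the BRD7116 group, 1 array stood apart from the other 4 by Dixon's criterion in 4 of the 18 genes examined that were not chosen for likeness to Acly. A rate of 5% would give about 0.9. The genes share the same arrays, and most were chosen by the size of their group difference on them, so nothing is read from this comparison. Acly was at 10.32 (log2 level) on BRD7116 replicate 2, below the other 4 at 10.62 to 10.74. Got2 was at 9.80 on the same array, below 10.09 to 10.17, which repeats the Acly value because Got2 was chosen for its likeness to Acly. The remaining 3 such values were on BRD7116 replicate 1, from the dim chip. There Fads1 was at 7.50 against 8.05 to 8.18, Dgat2 at 6.57 against 7.63 to 8.01, and Msn at 6.996 against 7.70 to 7.96 on the other 4 arrays. Without BRD7116 replicate 2 the log2 fold change of Acly was -0.036. The part of the dim chip in the last 3 values was not tested.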

How the results depend on the processing

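The log2 fold change of Acly ran from -0.22 to 0.011 and that of Acaca from -0.58 to 0.36 when 1 array was left out. Leaving out DMSO replicate 1 put the number of probes past the threshold at 706, 7 of them in the lists, against 0 as set, while each of the other arrays left out gave 0. There the only control is the dim array, whose spread was assumed equal to that of the BRD7116 group. The count was 1 with normexp, with the authors' values, with detection on all 7 arrays and with no detection filter, 2 without background correction and with a trended robust prior, and none of these was Acly or Acaca. At an unadjusted p under 0.05 the count was 574 of 8613 probes as set, 1080 with chip as a block and 32 with median scaling. It ran from 317 of 7927 to 1325 of 8400 when 1 BRD7116 array was left out. With detection on all 7 arrays it was 266 of 3088 probes, and with no filter 1651 of 25697. The filter changes the number of probes tested, so these counts are not to be compared without it.

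Member probes whose BRD7116 and DMSO arrays did not overlap numbered 0 to 5 when 1 array was left out and 6 without the dim chip. A single control makes this common by construction, with 42.3% of all probes apart without the dim chip. It was 30.2% without DMSO replicate 2, the setting with 5 member probes, and 43.5% without DMSO replicate 1, with 2. Without BRD7116 replicate 1, 2 or 4, 1 member probe was apart in each case, against 18.6%, 13.2% and 13.3% of all probes. Nothing is read from these counts. Median scaling moved the median of all probes to 0.53. Relative to that shift Acly had 0.17, the receptor list -0.18, other LXR targets -0.010, other fatty acid synthesis 0.10 and fatty acid oxidation 0.28. For other LXR targets the median was -0.12 with detection on all 7 arrays, 0.0053 with no filter, -0.0058 with chip as a block and -0.011 without the dim chip. The receptor list had -0.17 with chip as a block.

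When 1 array was left out, list medians ran from 0.016 to 0.70 for receptors, 0.095 to 0.31 for other LXR targets, -0.22 to 0.0037 for other fatty acid synthesis, -0.32 to 0.047 for acyl-CoA and glycerolipid genes, -0.19 to 0.39 for Mylip substrates, -0.15 to 0.22 for fatty acid oxidation and -0.32 to 0.19 for cholesterol synthesis. The cause of these shifts was not tested. The SREBP list moved by less than its spread in all 19 settings.

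Equal replicate numbers lay on different chips, and their deviations from the group means correlated at -0.52 and -0.32, so the numbers were not taken as pairs. With 2 controls these deviations mirror each other, which gives the pairs on the same chip 0.52 and 0.32. With a replicate block Acly had -0.21 with a 95% interval of -1.53 to 1.11, Acaca -0.32, the receptor list -0.17 and other LXR targets -0.0058, and 15 probes had an unadjusted p under 0.05.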
